A study of Mus musculus with 2 samples.

Results

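Ribosomal protein genes were followed through 7 kinds of immune cell in 2 single-cell RNA sequencing libraries of mouse lung. The rule took every gene symbol that starts with Rpl or Rps followed by a digit, together with Rplp0, Rplp1, Rplp2 and Rpsa, left out pseudogene symbols and the Rps6k kinases, and asked for at least 1000 unique molecular identifiers (UMIs, each standing for 1 captured RNA molecule) over both libraries. Of 31053 genes in the matrices, 86 symbols matched and 83 reached the minimum. They comprised 46 proteins of the large subunit, 31 of the small subunit, and 6 others: the paralogs Rpl22l1, Rps27l, Rps27rt, Rpl36al and Rpl7l1, and Rps19bp1, which encodes a protein that binds Rps19 and is not itself a ribosomal protein. The 3 symbols left out were Rpl10l with 0 UMIs, Rpl39l with 98 in oil and 100 in tamoxifen, and Rpl3l with 86 and 443. Rps19bp1, with 3297 UMIs over both libraries, lay just inside the minimum and Rpl3l, with 529, just outside.

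Both libraries came from adult mice that carry Gli1creERT, a tamoxifen-inducible Cre recombinase driven by Gli1, and floxed Hhip alleles. Gli1 marks mesenchymal cells that respond to Hedgehog, and Hhip is a cell-surface inhibitor that captures Hedgehog proteins. The control animals received oil and the others tamoxifen, which lets the Cre act in cells that express Gli1. The sorted immune cells are not those cells, so the targeted gene checks little here. Live lung cells positive for CD45 but unlabelled by a CD45 antibody given into the blood were sorted, which leaves out cells within vessels. The labels give neither the number of animals nor their sex, and there is 1 library per treatment. No difference below therefore has a replicate check, no test was possible, and the intervals given are exact 95% intervals that cover counting error only. Hhip had 50 UMIs in the oil library and 30 in the tamoxifen library, in 0.353% and 0.128% of kept cells. Ptprc, which encodes CD45, was found in 83.1% and 85.6% of kept cells.

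A ribosome is built from ribosomal RNA and a fixed set of proteins, assembled in the nucleolus into a small subunit that decodes the messenger RNA and a large subunit that forms peptide bonds. Messages for these proteins are abundant in most cells, and most of them begin with a C followed by a run of pyrimidines, the terminal oligopyrimidine motif, through which mTOR signalling and Larp1 adjust their translation. A few members have paralogs that replace them in some tissues: Rpl22l1 stands in for Rpl22, whose protein is known for its part in the development of alpha-beta T cells, and Rps27l, a target of p53, for Rps27.

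The start of the gene is shown for 6 members, chosen with their values known: Rps27 with its retrogene Rps27rt and its paralog Rps27l, which differed most between cell types, and Rplp2, Rps18 and Rpl35a, whose annotated start falls on a pyrimidine run. Each window holds the 35 bases before and the 15 bases from the start of transcription in RefSeq on GRCm38.p6, written 5′ to 3′ on the strand of the gene, and capitals mark the C and the pyrimidines that follow it. The sequences are RefSeq's. The positions are chr3:90213634-90213683 on the minus strand for Rps27, chr9:114982725-114982774 on the minus strand for Rps27rt, chr9:66946051-66946100 on the plus strand for Rps27l, chr7:141447616-141447665 on the plus strand for Rplp2, chr17:33955651-33955700 on the minus strand for Rps18 and chr16:33056447-33056496 on the plus strand for Rpl35a.
Rps27: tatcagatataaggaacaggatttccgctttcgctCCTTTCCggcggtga
Rps27rt: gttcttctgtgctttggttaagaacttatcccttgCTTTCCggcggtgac
Rps27l: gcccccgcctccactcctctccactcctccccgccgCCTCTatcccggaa
Rplp2: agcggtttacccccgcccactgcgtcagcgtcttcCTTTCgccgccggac
Rps18: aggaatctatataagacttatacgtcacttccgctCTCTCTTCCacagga
Rpl35a: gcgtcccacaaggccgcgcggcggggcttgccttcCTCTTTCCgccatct

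RefSeq promoters were matched for 63 of the 83 members, and 20 members, Rpl29 among them, were not matched. On the strand of the gene only, a C followed by at least 4 bases that are each C or T stood exactly at an annotated start in 14 of the 63 members (22.2%), against 3.01% of 27025 genes with a promoter in the same table. Within 10 bases of the start on either side such a run was present in 37 members (58.7%) and in 34.4% of all genes. The marked run starts at the annotated start in Rps27 and in Rps27rt, and 1 base after it in Rps27l. Rps27l and Rpl35a have further annotated starts without such a run, which are not shown. In Rps27, Rplp2, Rps18 and Rpl35a the bases just before the marked C are pyrimidines too, so the unbroken stretch begins before the annotated start. These matches are a description of the letters in the window.

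Cells were kept with at least 300 genes and under 10% mitochondrial UMIs, which left 6794 of 10342 barcodes in oil and 10138 of 12980 in tamoxifen, with medians of 6361 and 6431 UMIs. The gates were at least 1 UMI of a Cd3 gene with at least 1 of Lef1 or Ccr7 (Lef1/Ccr7 T cells) or with at least 1 of Cxcr6 (Cxcr6 T cells), at least 2 of Cd79a (B cells), at least 2 of Krt79 or Plet1 (alveolar macrophages), at least 5 of C1qa or C1qb (interstitial macrophages), at least 2 of Xcr1 or Clec9a (cDC1, cross-presenting dendritic cells) and at least 1 of Mgl2 or Cd209a. Checked on markers that the gates do not use, all 6 alveolar macrophage markers, all 6 interstitial macrophage markers and all 5 cDC1 markers were highest in their own gate in both libraries, as were 5 of 6 for Cxcr6 T cells as resident T cells and 4 of 5 for B cells. The Lef1/Ccr7 gate was meant for naive-like T cells, but 1 of 5 such markers in oil and 2 of 5 in tamoxifen were highest there. The Mgl2 or Cd209a gate was meant for cDC2, but 1 of 5 cDC2 markers, Clec10a, was highest there. Those gates are therefore called by their genes.

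The gates overlapped. Of 618 Lef1/Ccr7 T cells in oil 406 also passed the Cxcr6 gate, as did 533 of 895 in tamoxifen. Of 2035 Mgl2/Cd209a cells in oil 1059 were also interstitial macrophages, as were 879 of 1659 in tamoxifen. Of 476 alveolar macrophages in oil 106 also passed the cDC1 gate and 144 the Mgl2/Cd209a gate. In tamoxifen 208 and 293 of 2507 did. Values in cells that passed exactly 1 gate are given beside those that they change. The libraries shared 41 barcodes.

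Ribosomal protein messages made up 13.8% to 27.5% of the UMIs of a gate, least in alveolar macrophages and most in lymphocytes. Summed over cells, the share in oil was 24.6% in 618 Lef1/Ccr7 T cells, 23.9% in 233 B cells, 23.8% in 1890 Cxcr6 T cells, 22.6% in 539 cDC1, 20.0% in 2035 Mgl2/Cd209a cells, 17.8% in 1221 interstitial macrophages and 15.6% in 476 alveolar macrophages. In tamoxifen it was 27.5% in 415 B cells, 26.3% in 895 Lef1/Ccr7 T cells, 24.0% in 3145 Cxcr6 T cells, 23.5% in 701 cDC1, 20.9% in 1659 Mgl2/Cd209a cells, 19.0% in 1262 interstitial macrophages and 13.8% in 2507 alveolar macrophages. Thus cDC1 and Mgl2/Cd209a cells lay between lymphocytes and macrophages in both libraries. In cells that passed exactly 1 gate cDC1, at 24.1% and 25.9%, lay above Cxcr6 T cells, at 23.8% and 25.01%, and in oil above B cells at 23.2%. The order of the lower 4 gates was the same in both. The depth of the sums makes the counting intervals narrow, as from 24.56% to 24.63% for Lef1/Ccr7 T cells in oil, and they say nothing of variation between animals.

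**Figure D1:**
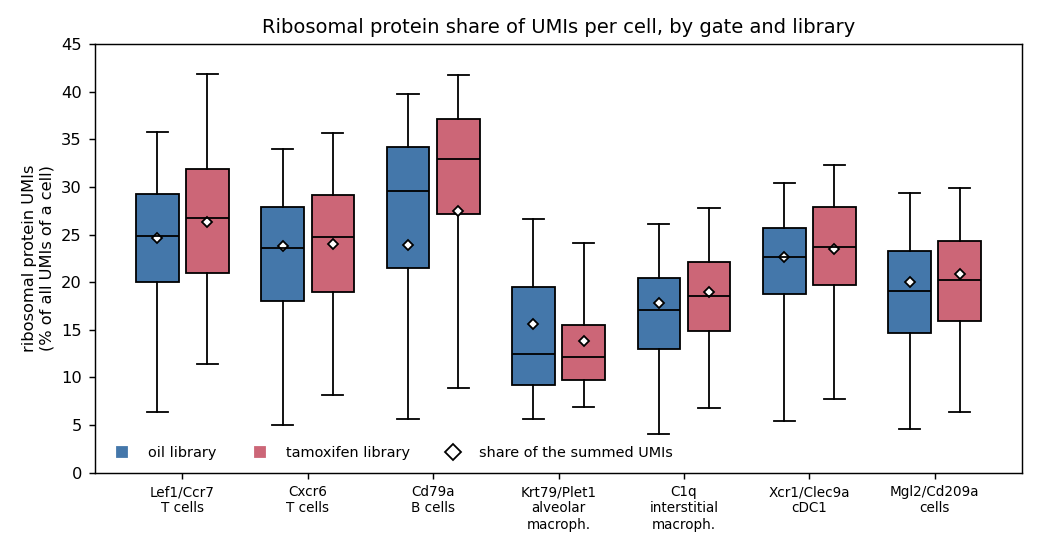
Share of each cell's UMIs that came from the 83 members (y axis, percent) in 7 gates, for the oil and the tamoxifen library. Boxes span the quartiles over cells with the median as a line, whiskers the 5th to the 95th percentile, and diamonds mark the share of the summed UMIs. Alveolar macrophages have the lowest medians, 12.4% in oil and 12.1% in tamoxifen, and B cells the highest, 29.6% and 33.0%.

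Within a gate cells spread widely. In Cxcr6 T cells the quartiles were 18.0% and 27.9% in oil and 19.0% and 29.2% in tamoxifen, so the T cell and cDC1 gates overlapped over most of their range. The median per alveolar macrophage was 12.4% in oil (quartiles 9.25% and 19.5%) and 12.1% in tamoxifen (quartiles 9.72% and 15.5%), and the upper quartile in both lay below the median of the T cell gates. B cells had the highest medians, 29.6% and 33.0%, although their summed share was close to that of T cells in oil. Immunoglobulin genes took 19.6% of the UMIs of the B gate in oil and 12.8% in tamoxifen. Without immunoglobulin UMIs the summed share of B cells was 29.8% and 31.5%, above that of all other gates.

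Small-subunit members supplied a nearly fixed part of the members' UMIs, from 45.1% in alveolar macrophages of the tamoxifen library to 47.1% in B cells of the same library. The median cell held UMIs of 80 or 81 of the 83 members in every gate. The members with most UMIs over both libraries were Rps24 (774432), Rps29, Rplp1, Rpl13 and Rpl41, and those with fewest were Rps19bp1 (3297), Rpl7l1 (5075) and Rps27rt (21804). These are numbers of molecules counted at the end of the message. Many members have near-identical pseudogenes or paralogs elsewhere in the genome, and the sources used here do not say how reads that fit several copies were counted, so an order between genes is uncertain.

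Set against Cxcr6 T cells of the same library, nearly every member was lower in alveolar macrophages. Past a 1.3-fold difference in UMIs per 1000000 UMIs of the gate (CPM) in both libraries, with at least 500 UMIs over the 2 sums, 70 of 82 members were lower, where 25.4% of all genes passed the same rule. Only 1 member was higher, Rps27l, where 27.9% of all genes were. The members' median log2 ratio was -0.58 in oil and -0.86 in tamoxifen, against -0.02 and 0.17 over all genes tested. Large-subunit members had medians of -0.58 and -0.83 and small-subunit members of -0.60 and -0.90. The share as a whole was lower by 0.61 in oil and 0.80 in tamoxifen on the log2 scale, and in cells that passed exactly 1 gate by 1.11 and 1.08. Alveolar macrophages had median totals of 12636 and 10341 UMIs per cell and Cxcr6 T cells 6160 and 5599. Of these 2 gates, the one with the lower share thus had the deeper profiles. The deepest gate was cDC1, at 15245 and 14516 UMIs per cell, with shares of 22.6% and 23.5%. Alveolar macrophage markers summed to 168 CPM in the Cxcr6 T cells of the oil library and 841 in those of tamoxifen, against 9065 and 9115 in their own gate. The parts of depth and of these molecules in the difference were not tested.

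Rpl12, a protein of the stalk base of the large subunit, stood lowest. It had 1278 CPM in alveolar macrophages and 2790 in Cxcr6 T cells of the oil library, and 1113 and 2816 in tamoxifen, log2 ratios of -1.13 (95% interval -1.16 to -1.09) and -1.34 (-1.36 to -1.32). Rps24, the member with most UMIs, had 3872 against 7379 CPM in oil and 3354 against 7359 in tamoxifen, ratios of -0.93 and -1.13. At the other end Rpl41, one of the smallest proteins known, had 4022 against 4713 CPM in oil and 4435 against 4989 in tamoxifen, ratios of -0.23 and -0.17. Rplp1, an acidic protein of the stalk that recruits elongation factors, was at -0.33 and -0.35. Its stalk partners Rplp2 (-0.58 and -0.49) and Rplp0 (-0.40 and -0.63) and the small-subunit protein Rpsa, also known as the laminin receptor (-0.60 and -0.95), were past the fold in both libraries. So the stalk proteins P0, P1 and P2 did not shift by one amount. Rps27l went the other way, with 418 against 256 CPM in oil and 414 against 280 in tamoxifen, ratios of 0.70 (0.63 to 0.78) and 0.56 (0.51 to 0.61). Rps19bp1 and Rpl7l1, which have low counts, were at 0.27 and 0.20 and at 0.21 and 0.09, and for Rps19bp1 the oil sums did not reach 500 UMIs.

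By the members' medians the other myeloid gates lay between alveolar macrophages and Cxcr6 T cells. B cells lay above Cxcr6 T cells, with medians of 0.01 in oil and 0.19 in tamoxifen. In interstitial macrophages 35 of 83 members were lower than in Cxcr6 T cells in both libraries (background 33%) and Rps27l was higher at 0.56 and 0.69 (background 19.9%), with member medians of -0.40 and -0.34 against -0.25 and -0.18 for all genes. In Mgl2/Cd209a cells 15 of 83 were lower (background 33.4%) and Rps27l was higher at 0.88 and 0.84 (background 19.4%). In cDC1 4 of 82 were lower (background 38.6%): Rpl22l1 at -0.86 and -0.78, Rpl29 at -0.52 and -0.66, Rpl12 at -0.57 and -0.56 and Rps27 at -0.41 and -0.39. Rps27l was higher in cDC1 at 1.08 and 1.01 (background 16.4%), and the members' medians were -0.06 and -0.04. In B cells none of 82 was lower (background 45.2%) and Rps20 was higher at 0.39 and 0.67 (background 5.35%). The B gate also held antibody-secreting cells, with 16628 CPM of Jchain in oil and 10662 in tamoxifen. The share of members that were lower was therefore above the background in interstitial macrophages and below it in the Mgl2/Cd209a, cDC1 and B cell gates. The share that was higher lay below the background in each of these gates. All of these comparisons share the Cxcr6 T cells. In cells that passed exactly 1 gate the share of cDC1 was above that of Cxcr6 T cells, by 0.02 and 0.05 on the log2 scale, and without this restriction below it by 0.07 and 0.03.

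Lef1/Ccr7 T cells differed little from Cxcr6 T cells. Lef1 and Ccr7 are genes of naive and lymph-node-homing T cells, and Cxcr6 marks T cells that stay in tissue. The share was 24.6% against 23.8% in oil, a log2 ratio of 0.05, and 26.3% against 24.0% in tamoxifen, a ratio of 0.13. In cells that passed exactly 1 gate it was 25.5% in 147 cells against 23.8% in 1350 in oil (0.10), and 30.0% in 265 against 25.01% in 2324 in tamoxifen (0.26). Most single members lay above 0 with the share: 73 of 82 in oil and 82 of 83 in tamoxifen. Their median ratios were 0.05 and 0.13, against -0.07 and -0.04 over all genes tested. The share of all genes above 0 is not given. Past 1.3-fold in both libraries 1 of 82 members was higher (background 3.62%) and none lower (background 3.76%).

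That member was Rps27l, with 341 CPM in Lef1/Ccr7 and 256 in Cxcr6 T cells of the oil library, and 372 and 280 in tamoxifen. Its log2 ratios were 0.41 (0.33 to 0.50) and 0.41 (0.34 to 0.47), and 1.13 and 0.84 in cells that passed exactly 1 gate. In female cells they were 0.44 and 0.35, the latter short of 1.3-fold. Behind it came Rps19, a small-subunit protein mutated in Diamond-Blackfan anaemia, at 0.18 and 0.29, with Rplp0 at 0.11 and 0.26, Rpsa at 0.14 and 0.22 and Rpl3, a protein next to the peptidyl transferase centre, at 0.12 and 0.23. These 5 had the highest means over both libraries. The 5 with the lowest means were Rps21 (-0.03 and 0.04), Rpl30 (-0.01 and 0.03), Rps25 (-0.02 and 0.06), Rps14 (0.00 and 0.05) and Rpl37a (-0.01 and 0.06), which is to say that they were level between both kinds of T cell. Among the stalk genes Rplp1 (-0.01 and 0.07) and Rplp2 (0.00 and 0.09) were nearer to 0 than Rplp0.

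**Figure D2:**
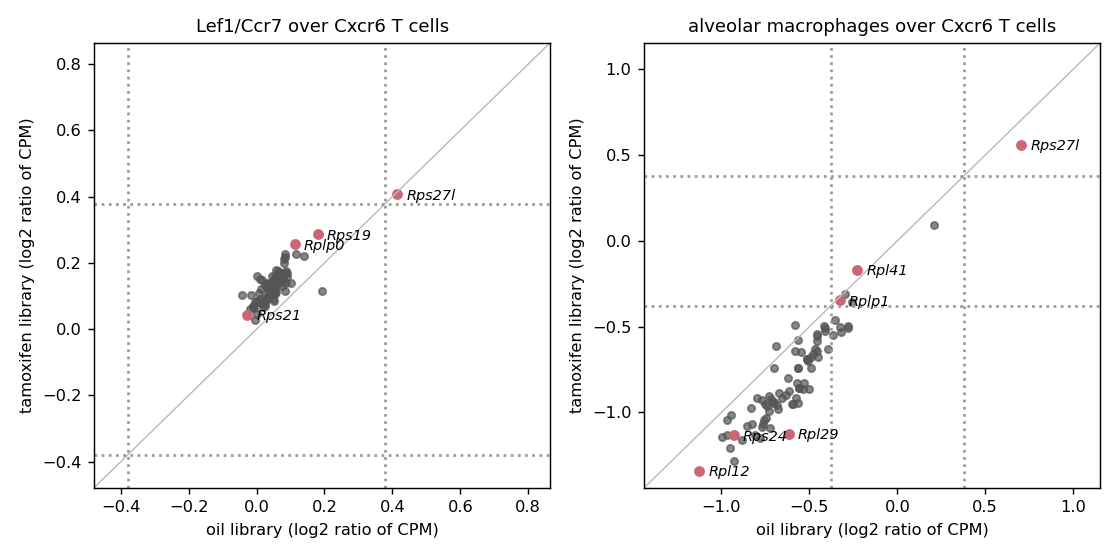
Log2 ratio of CPM for each member in Lef1/Ccr7 T cells (left) and alveolar macrophages (right) over Cxcr6 T cells, in the oil library (x axis) and in the tamoxifen library (y axis). Dotted lines mark 1.3-fold and the grey line equal ratios. On the left Rps27l lies past the dotted lines in both libraries, at 0.41 and 0.41. On the right most members lie below -0.38 in both and Rps27l lies above 0.38.

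Because the whole group moves with the share, each member was also expressed as its part of the members' UMIs, on the log2 scale and relative to the mean over the 7 gates. On this scale the range over gates, averaged over libraries, had a median of 0.29 over the 83 members, from 0.08 for Rpl32 to 1.55 for Rps27l. The same gate was highest in both libraries for 59 members and the same gate lowest for 61. Over members, the contrast with Cxcr6 T cells had a Pearson correlation between the libraries of 0.94 for alveolar macrophages (82 members), 0.98 for cDC1 (82 members) and 0.82 for Lef1/Ccr7 T cells (82 members). The members share the depth of their library and cells, so these are descriptions. Of members highest in 1 gate in both libraries, 15 were so in alveolar macrophages, 12 in B cells, 11 in interstitial macrophages, 10 in Cxcr6 T cells, 10 in cDC1, 1 in Mgl2/Cd209a cells and none in Lef1/Ccr7 T cells.

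The widest ranges were those of Rps27l, Rps19bp1, Rpl7l1, Rpl22l1 and the core member Rpl29 (0.64), while the paralog Rpl36al, at 0.34, varied less than many core members. Rps27l was at 0.60 and 0.74 in alveolar macrophages of the oil and tamoxifen library and at 0.44 and 0.42 in cDC1, but at -0.72 and -0.62 in Cxcr6 T cells and -0.63 and -1.05 in B cells. Rps19bp1 was highest in alveolar macrophages (0.74 and 0.89) and lowest in cDC1 (-0.55 and -0.31), and Rpl7l1, a nucleolar relative of Rpl7, showed the same extremes (0.66 and 0.72 against -0.43 and -0.46). Rpl22l1 was high in Lef1/Ccr7 T cells (0.30 and 0.33) and Cxcr6 T cells (0.34 and 0.31) and lowest in cDC1 (-0.45 and -0.44). So Rps27l was higher in the myeloid gates and Rpl22l1 in the T cell gates.

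For the other core proteins, the extremes given here fell in the same gate in both libraries. Rpl12 was highest in Cxcr6 T cells (0.31 and 0.32) and at -0.20 and -0.22 in alveolar macrophages. Rpl41 (0.34 and 0.54) and Rplp1 (0.32 and 0.44) were highest in alveolar macrophages. Rps20, a protein of the head of the small subunit, was highest in B cells (0.36 and 0.37) and lowest in cDC1 (-0.22 and -0.21), and Rps27 was likewise highest in B cells (0.34 and 0.38). Rpl10, a protein added late in the maturation of the large subunit, was highest in interstitial macrophages (0.30 and 0.33). Rpl23a was lowest in B cells (-0.39 and -0.32). At the other end Rpl32 stayed between -0.04 and 0.05 in all gates.

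**Figure D3:**
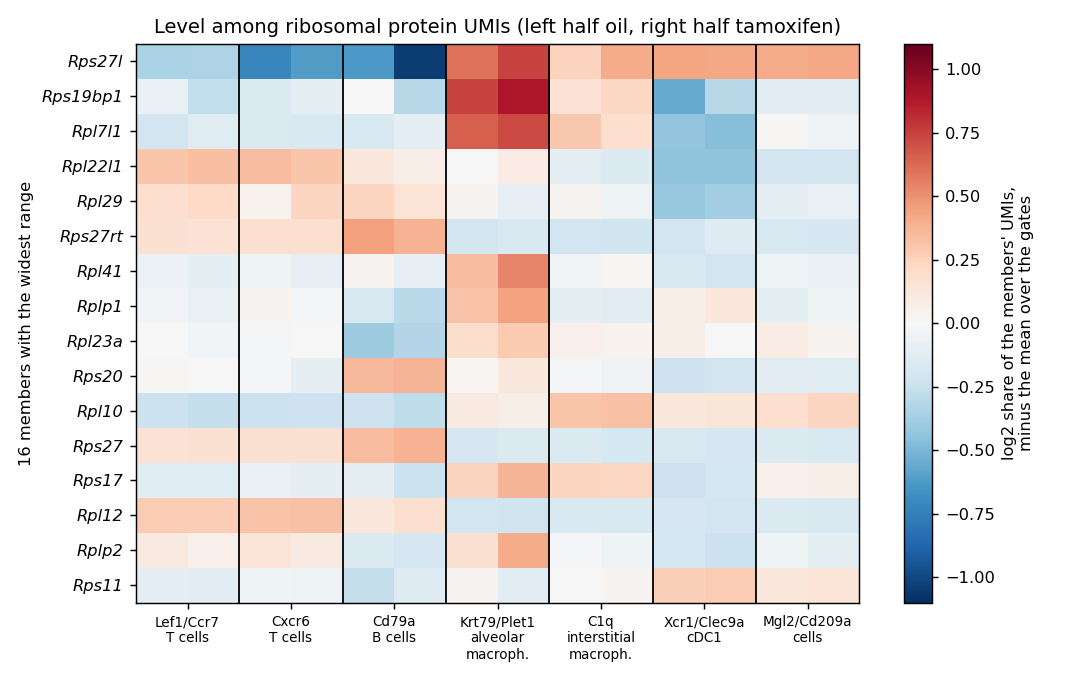
Level of the 16 members with the widest range over gates (rows), as the log2 part of the members' UMIs minus the mean over the 7 gates (colour), in 7 gates with the oil library on the left of each and tamoxifen on the right. Rps27l runs from -1.05 in B cells to 0.74 in alveolar macrophages of the tamoxifen library, and Rpl22l1 is high in T cells and low in cDC1 in both libraries.

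Set against their partners, the paralogs gave the same picture in molecules. Rpl22l1 (chr3:28805436-28807424) made up 25.1% of the UMIs of Rpl22 and Rpl22l1 together in Lef1/Ccr7 T cells of the oil library (24.3% to 25.8%) and 25.3% in Cxcr6 T cells. It made up 22.8% in B cells, 19.6% in alveolar macrophages, 19.3% in interstitial macrophages, 18.0% in Mgl2/Cd209a cells and 14.9% in cDC1. The tamoxifen values were 25.9%, 25.04%, 21.7%, 20.7%, 19.0%, 18.2% and 15.4%, in the same order of gates. T cells were thus at the top and cDC1 at the bottom in both libraries.

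Rps27l (chr9:66946086-66949516) made up 15.4% and 16.5% of the UMIs of Rps27 and Rps27l in alveolar macrophages of the oil and tamoxifen library, and 13.8% and 13.8% in cDC1. In Cxcr6 T cells it made up 5.40% and 5.76%, and in B cells 5.11% and 3.76%. The 4 myeloid gates lay above the 3 lymphoid gates in both libraries, and in cells that passed exactly 1 gate the nearest were interstitial macrophages at 10.7% and Lef1/Ccr7 T cells at 8.27%, both in oil. Rps27rt (chr9:114982366-114982739), a retrogene copy of Rps27, made up 4.38% to 4.83% of the UMIs of Rps27 and Rps27rt in oil and 4.16% to 4.32% in tamoxifen over the 7 gates, so it followed Rps27 closely. Its sequence is near that of Rps27, and reads from Rps27 may have been counted for it. Rpl36al made up 29.8% to 35.7% of its pair with Rpl36a. Rpl7l1 made up 3.37% and 3.53% of its pair with Rpl7 in alveolar macrophages, and 1.61% and 1.57% in cDC1. In alveolar macrophages that passed exactly 1 gate it made up 6.02% and 4.25%.

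The comparison of tamoxifen with oil asks whether tamoxifen in these mice went with a difference in ribosomal protein messages of the sorted immune cells. Both libraries have the same genotype, and no tamoxifen library without Cre is present. The drug, the deletion of Hhip and the animals therefore cannot be told apart. The summed share was higher in tamoxifen in 6 gates, with log2 ratios of 0.10 in Lef1/Ccr7 T cells, 0.01 in Cxcr6 T cells, 0.20 in B cells, 0.09 in interstitial macrophages, 0.05 in cDC1 and 0.06 in Mgl2/Cd209a cells. In alveolar macrophages it was lower, 15.6% in oil and 13.8% in tamoxifen, a ratio of -0.17. That sign turned in cells that passed exactly 1 gate, with 11.1% in 285 oil and 11.8% in 1943 tamoxifen cells (0.10), and the medians over all alveolar macrophages, 12.4% and 12.1%, differed little. Of the alveolar macrophage gate, 40.1% in oil and 22.5% in tamoxifen also passed another gate, most often the Mgl2/Cd209a or the cDC1 gate. The cDC1 markers summed to 1004 CPM in the alveolar macrophage gate in oil and 653 in tamoxifen, against 1995 and 1954 in cDC1. The parts of this overlap and of these markers in the result were not tested. In B cells the ratio became 0.08 when immunoglobulin genes were left out of the total, and it was 0.36 in female and -0.45 in male cells, the latter only 21 and 49 cells. Markers of other cells were higher in several gates of the tamoxifen library. In Lef1/Ccr7 T cells the haemoglobin gene Hbb-bs had 19.1 CPM in oil and 555 in tamoxifen, the neutrophil gene S100a8 had 5.37 and 188, and the 6 alveolar macrophage markers summed to 72.1 and 790. The 12 markers of other cells summed to 708 and 1321 CPM there, and to 174 and 656 in Cxcr6 T cells, 16716 and 10768 in B cells, 325 and 395 in alveolar macrophages, 773 and 620 in interstitial macrophages, 396 and 551 in cDC1 and 641 and 1343 in Mgl2/Cd209a cells. Single genes gave much of some of these sums. Jchain gave 577 and 33.6 CPM in Lef1/Ccr7 T cells and 16628 and 10662 in B cells, whose gate held antibody-secreting cells. Pf4 gave 526 and 491 in interstitial macrophages. The part of all these markers in the shares was not tested.

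No member passed 1.3-fold upwards in any gate. In cells that passed exactly 1 gate 13 pairs of a member and a gate did, and in female cells 29 pairs, all in B cells. In female B cells the share as a whole had a ratio of 0.36. No share of all genes is given for these restricted cells, so whether the pairs exceed it is unknown. The background given next is for all cells of a gate. The background of genes higher in tamoxifen was 4.88% in Lef1/Ccr7 T cells, 6.82% in Cxcr6 T cells, 8.57% in B cells, 20.3% in alveolar macrophages, 9.64% in interstitial macrophages, 4.45% in cDC1 and 5.1% in Mgl2/Cd209a cells. Downwards 2 members passed, Rpl29 and Rpl5, both in alveolar macrophages, where 6.31% of all genes were lower. None passed in the other gates, where 3.9%, 2.33%, 3.51%, 4.13%, 2.9% and 2.91% of genes were lower in the same order. In Lef1/Ccr7 T cells 77 of 81 members lay above 0 and in alveolar macrophages 78 of 83 below it. The median member ratios were 0.09, 0.01, 0.20, -0.19, 0.09, 0.05 and 0.06 over the 7 gates in the order of the background, against 0.04, 0.04, 0.13, 0.14, 0.08, 0.02 and 0.05 over all genes tested. Scaling by the median of gene ratios shifts alveolar macrophages by 0.14 and B cells by 0.13, and under it 31 pairs of a member and a gate were past the fold downwards. The share of all genes past the fold under this scaling is not given.

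Rpl29 and Rpl5 belong to the large subunit. Rpl5 carries the 5S ribosomal RNA and, when assembly fails, binds Mdm2. In alveolar macrophages it had 883 CPM in oil and 675 in tamoxifen, a ratio of -0.39 (-0.43 to -0.34), which became -0.18 in cells that passed exactly 1 gate. Rpl29 had 205 and 136 CPM, a ratio of -0.60 (-0.69 to -0.50), and -0.47 in cells that passed exactly 1 gate. It was also the lowest or second lowest member in 5 of the other 6 gates. It had 360 and 321 CPM in Lef1/Ccr7 T cells (-0.17), 364 and 319 in B cells (-0.19), 235 and 191 in interstitial macrophages (-0.30), 219 and 188 in cDC1 (-0.22) and 239 and 206 in Mgl2/Cd209a cells (-0.21). In interstitial macrophages that passed exactly 1 gate it was at 0.05. Female and male cells differ in Rpl29, as given below, and the libraries differ in their mix of sexes. Within female cells the ratio turned to 0.19 in cDC1 and 0.09 in B cells, and in cDC1 there were 315 female and 167 male cells in oil and 285 and 290 in tamoxifen. Within male cells it was -0.22 in cDC1 and -0.56 in B cells. These rest on 167 UMIs in oil and 242 in tamoxifen in cDC1 and on 18 and 32 in B cells, short of the minimum of 500. In alveolar macrophages Rpl41 (0.14), Rplp2 (0.12) and Rpl37a (0.12) were highest. In Cxcr6 T cells, the largest T cell gate, Rpl13a was lowest at -0.21 (398 and 345 CPM) and Rps27l highest at 0.13. In B cells Rps20 had the highest ratio, 0.33, with 5447 CPM in oil and 6841 in tamoxifen, and Rps27l the lowest, -0.20. In Lef1/Ccr7 T cells Rplp0 and Rps2 were highest, both at 0.23, and in cDC1 Rps20 (0.19) and Rps18 (0.14). In interstitial macrophages Rpl41 and Rps27l were highest, both at 0.26, and in Mgl2/Cd209a cells Rps20 (0.17) and Rpl41 (0.16).

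Expressed as a part of the members' UMIs, which takes out the share, 15 of 81 members tested in all 7 gates were below 0 in all of them and 7 were above, while 59 had both signs. The gates overlap and come from the same 2 libraries, so they are not independent. The share of all genes with the same sign in every gate is not given, so whether the members exceed it is unknown. In cells that passed exactly 1 gate 6 members kept their place below 0 in all 7 gates: Rpl29, Rpl13a, Rpl5, Rpl35a, Rps3a1 and Rpsa. Of those above, Rpl39 and Rps20 did. Rpl29 ranged from -0.42 to -0.10 over the gates, with the reservation on the mix of sexes above. Over the gates Rpl13a ranged from -0.22 to -0.09, Rpl5 from -0.22 to -0.05 and Rpl35a from -0.18 to -0.09. Rps20 ranged from 0.04 to 0.21. Rps20 is thus the member with the highest median among those above 0 in all gates, at 0.11, and Rpl29 the one with the lowest among those below, at -0.27.

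**Figure D4:**
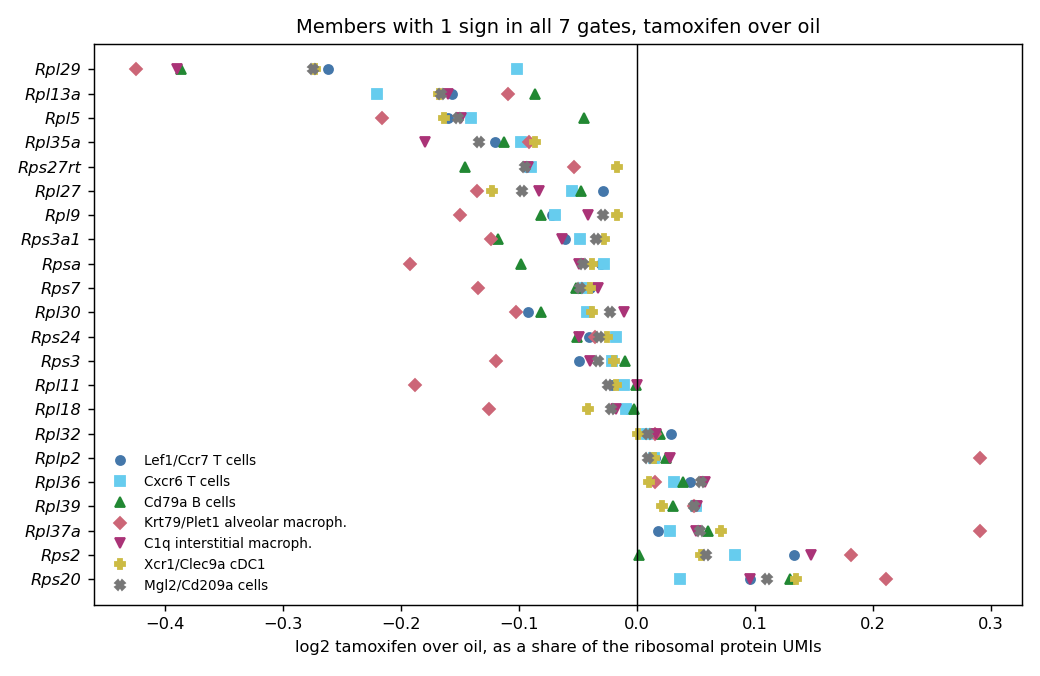
Log2 ratio of tamoxifen over oil as a part of the members' UMIs (x axis) for the 22 members with the same sign in all 7 gates (rows), 1 symbol per gate. Rpl29 spans -0.42 to -0.10 and Rps20 spans 0.04 to 0.21, and the alveolar macrophage points of Rplp2 and Rpl37a, both at 0.29, lie apart from their other gates.

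Rpl29 (chr9:106429454-106431568, plus strand) differed between female and male cells by more than any other member. Rpl29 is a small protein at the surface of the large subunit, also known as a heparin-binding protein. Both libraries held cells of both sexes: 3714 kept cells in oil and 6156 in tamoxifen had Xist UMIs and none of 4 Y-linked genes, and 1413 and 1679 the reverse. Female cells had 375 CPM of Rpl29 in oil and 277 in tamoxifen, and male cells 64.8 and 58.3. The log2 ratios of female over male cells were 2.53 (2.43 to 2.63) and 2.25 (2.15 to 2.35). Rpl29 was the 1 member of 83 past 1.3-fold in both libraries (background 2.53%), and none was lower in both (background 2.94%). The other members lay between -0.14 and 0.30 in oil and between -0.49 and 0.32 in tamoxifen. These ratios pool all kept cells, and the sexes differed in cell types. In tamoxifen 2002 of 6156 female and 212 of 1679 male cells were in the alveolar macrophage gate, and in oil 289 of 3714 and 111 of 1413. The part of this mix in the ratios was not tested. The comparison was made after the values in female cells had been seen. How many animals of each sex entered a library is unknown, so sex and the animal cannot be told apart.

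The difference was present in every gate. In Cxcr6 T cells female and male cells had 420 and 68.9 CPM in oil and 409 and 67.2 in tamoxifen, ratios of 2.61 and 2.61. In Lef1/Ccr7 T cells the values were 508 and 64.5 in oil and 423 and 60.6 in tamoxifen. In B cells they were 403 and 82.2 in oil and 428 and 55.9 in tamoxifen. In cDC1 they were 301 and 68.5 in oil and 344 and 59.0 in tamoxifen. Male cells thus stayed at 42.9 to 82.2 CPM in every gate and both libraries, while female cells ranged from 151 to 508. The value of 82.2 rests on 18 UMIs in 21 male B cells of the oil library. In alveolar macrophages, where the ratios were 2.22 and 1.81, female cells had 255 CPM in oil and 151 in tamoxifen, and male cells 54.6 and 42.9. Of alveolar macrophages with a called sex, 289 were female and 111 male in oil, and 2002 and 212 in tamoxifen. Rpl29 was lower in tamoxifen within female and within male alveolar macrophages. The parts of the mix of sexes and of the animals in the lower Rpl29 of this gate were not tested. Female interstitial macrophages had 352 and 257 CPM.

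Female cells were not uniform. Cells were thinned to 5000 UMIs each, leaving out shallower ones, which left 2648 female and 1077 male cells in oil and 4536 and 1251 in tamoxifen. At least 4 UMIs of Rpl29 were found in 23.0% of female cells in oil (21.4% to 24.7%) and 14.6% in tamoxifen (13.6% to 15.7%), against 0.186% and 0.16% of male cells. Yet 38.6% of female cells in oil and 51.5% in tamoxifen had none, against 72.3% and 75.7% of male cells. Before thinning, 73.5% and 60.5% of the same female cells had a UMI of Rpl29, and 45.3% and 41.2% of the male cells. The variance of the thinned counts was 2.76 and 3.13 times their mean in female cells and 1.09 and 1.12 times in male cells, where Poisson counting gives 1. For Rpl13a, the core member nearest in UMIs, it was 1.47 and 1.39 times in female cells and 1.28 and 1.26 times in male cells. Within Cxcr6 T cells alone, at least 4 UMIs were found in 26.9% of female cells in oil and 25.3% in tamoxifen, and in 0.338% and 0% of male cells, where 0 of 414 allows a share of up to 0.887% by the upper bound of the exact interval. The part of free RNA in the few UMIs of male cells was not tested. Cells called female thus held both cells with counts like those of male cells and cells far above them, within a single gate. Any Xist UMI without a Y-linked UMI made a cell female, so male cells may be among them. The part of such calls in this spread was not tested.

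**Figure D5:**
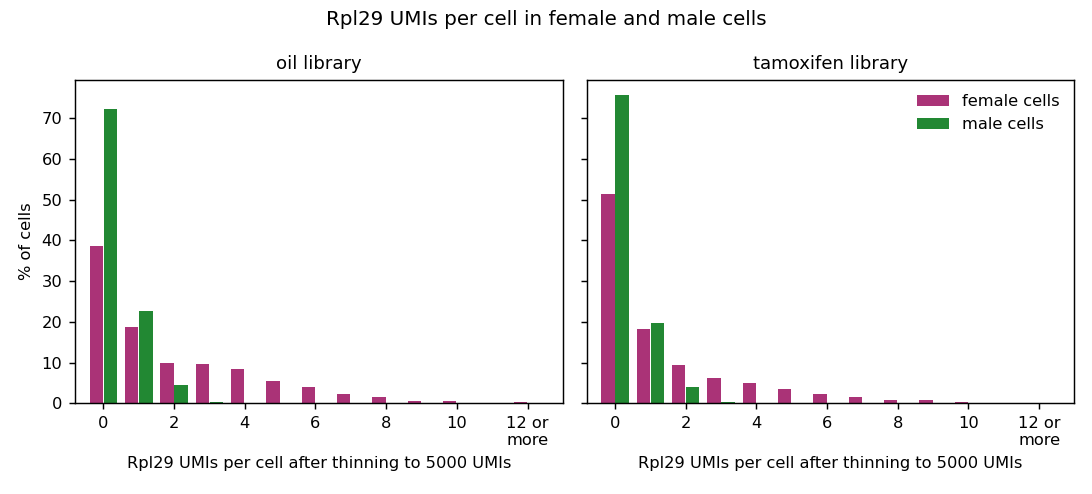
Percent of female and male cells (y axis) by their number of Rpl29 UMIs after thinning each cell to 5000 UMIs (x axis, last bin 12 or more), in the oil and the tamoxifen library. Nearly all male cells have 0 to 2 UMIs, and 23.0% of female cells in oil and 14.6% in tamoxifen have 4 or more.

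Over all members, the spread between cells of a gate beyond counting error, given as the variance in excess of Poisson counting divided by the squared mean, had medians of 0.02 to 0.03. For Rpl29 it was 1.00 to 1.80 over the 14 combinations of a gate and a library, the highest or the second highest in each of them. In lymphocytes Rps27l was also far above the median, with 1.72 and 1.39 in Lef1/Ccr7 T cells, 1.22 and 0.91 in Cxcr6 T cells and 1.58 and 1.298 in B cells of the oil and tamoxifen library. In Cxcr6 T cells of the tamoxifen library Rps19bp1, which has few UMIs there, was higher than Rps27l at 1.04. In alveolar macrophages Rps27l was lower than in lymphocytes, at 0.16 and 0.18, but still 3rd and 4th of the members. Over all kept cells the female over male ratio of Rps27l was 0.08 in oil and -0.14 in tamoxifen.

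Rps18, a protein of the head of the small subunit encoded on chromosome 17, had the lowest female over male ratio in tamoxifen, -0.49, with 2260 CPM in female and 3166 in male cells. In oil it was -0.03, with 2570 and 2623 CPM. As a part of the members' UMIs it was -0.30 in tamoxifen, between -0.40 and -0.21 over the gates, and -0.04 in oil, between -0.14 and 0.07. As a part of the members' UMIs Rps18 was thus lower in female cells in every gate of the tamoxifen library, and on both sides of 0 in oil. Rps4x, an X-linked member, has a partner on the human but not the mouse Y chromosome. The X-linked members Rpl39, Rpl10, Rps4x and Rpl36a had ratios over all kept cells of -0.03, 0.00, -0.11 and -0.02 in oil. In tamoxifen they had -0.16, -0.24, -0.34 and -0.10, which as a part of the members' UMIs became 0.02, -0.05, -0.16 and 0.09. These ratios, and those of Rps18 over all kept cells, were not adjusted for the mix of cell types given above.

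Other genes of translation were taken as lists. The ribosome components Fau and Rack1, whose symbols the rule does not cover, were lower in alveolar macrophages than in Cxcr6 T cells past 1.3-fold in both libraries, at -0.40 and -0.62 for Fau and -0.43 and -0.64 for Rack1. Over all genes 27.9% were higher and 25.4% lower by this rule. Of 7 elongation genes 4 were lower and none higher: Eef1a1, which brings aminoacyl-tRNA to the ribosome (-0.42 and -0.56), its exchange factor subunits Eef1d and Eef1g, and Tpt1 (-0.76 and -0.97). Eef2, the translocation factor, was level at -0.01 and -0.08. Of 29 initiation genes 6 were higher and 7 lower, shares near or below those of all genes. Eif4b, a helicase cofactor (0.74 and 0.84), and Eif3b (0.68 and 0.66) were the highest of them, and Eif3h (-0.74 and -0.99) and Eif3i (-0.71 and -0.98), subunits of the same factor as Eif3b, the lowest. Of the ribosome biogenesis genes 22 of 36 could be tested, with 1 higher and 3 lower, Bysl, needed for maturation of the small subunit, lowest at -1.86 and -1.92. The list medians were -0.42 and -0.72, 0.18 and 0.01, and -0.16 and -0.26 for elongation, initiation and biogenesis, against -0.02 and 0.03 over the genes tested in both libraries. Between Lef1/Ccr7 and Cxcr6 T cells no gene of these 3 lists passed the fold in both libraries.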

How the data were processed

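The deposited values are unnormalised UMI counts for each gene in each barcode, from 10x Genomics 3' libraries per the labels. The authors made these counts with Cell Ranger 5.0.1 on GRCm38 (mm10), per the submitters' processing notes, which do not say how reads mapping to several places were treated. Gene positions were matched by identifier to GENCODE on GRCm38. Members, gates and lists were chosen with earlier results of these data known. Comparisons of gates other than Lef1/Ccr7 T cells with Cxcr6 T cells, of female with male cells, per-cell spread and promoter runs were added after values had been seen.

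UMIs were summed per gate and library with Python 3.11.15, numpy 2.4.6, scipy 1.17.1 and pandas 2.3.3, and scaled to 1000000 UMIs (CPM). Intervals are exact, at 95%, Clopper-Pearson for shares and for ratios of Poisson counts, and cover counting error only. A gene counted as past the fold at 1.3-fold with at least 500 UMIs over the 2 sums. The text names the 6 members that are not core proteins with their partners, the stalk genes and Rpsa, the 5 members with most and 3 with fewest UMIs, the 2 highest and 2 lowest per gate in tamoxifen over oil, the 5 highest and 5 lowest in Lef1/Ccr7 over Cxcr6 T cells and the 5 with the widest range. Others were named after their values were seen. Thinning used 5000 UMIs and seed 1. No doublet caller was run. Cells passing exactly 1 gate served as the alternative. The ratio step was tested on simulated counts.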

Additional observations from a re-analysis of the deposited data

Results flagged for a closer look

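The share of ribosomal protein UMIs in tamoxifen over oil was below 0 in alveolar macrophages (-0.17 on the log2 scale) and above 0 in the other 6 gates. The difference between gates was not tested, as there is 1 library per treatment.

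In 3 gates female and male cells lay on different sides of 0 in the same comparison, and these differences were not tested either. In Cxcr6 T cells the ratio was -0.0034 in female and 0.10 in male cells. In B cells it was 0.36 in female and -0.45 in male cells, the latter from 21 cells in oil and 49 in tamoxifen. In alveolar macrophages it was -0.22 in female and 0.095 in male cells.

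Among the pseudogene symbols that the rule leaves out, Rpl10-ps3 had the most UMIs, 5089 in oil and 6879 in tamoxifen (88.2 and 82.2 CPM over all barcodes). Whether these molecules came from that copy or from Rpl10 was not tested.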

How the results depend on the processing

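Values here are log2 ratios of the share unless counts are named. The counts of pairs and members have no share of all genes under the same setting beside them. In cells that passed exactly 1 gate, tamoxifen over oil was 0.24 in Lef1/Ccr7 T cells, 0.069 in Cxcr6 T cells, 0.32 in B cells, 0.095 in alveolar macrophages (turning the sign of -0.17), 0.073 in interstitial macrophages, 0.10 in cDC1 and 0.071 in Mgl2/Cd209a cells. Lef1/Ccr7 over Cxcr6 T cells was then 0.097 in oil and 0.26 in tamoxifen, with 2 members higher, and 13 pairs of a member and a gate were higher and 4 lower in tamoxifen over oil.

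In female cells tamoxifen over oil was -0.0034 in Cxcr6 T cells, 0.36 in B cells, -0.22 in alveolar macrophages, 0.11 in interstitial macrophages and 0.070 in Mgl2/Cd209a cells, with 29 pairs higher and 14 lower. In male cells it was 0.13 in Lef1/Ccr7 T cells, 0.10 in Cxcr6 T cells, -0.45 in B cells, 0.095 in alveolar macrophages, 0.022 in interstitial macrophages, 0.10 in cDC1 and 0.032 in Mgl2/Cd209a cells, with 4 pairs higher and 57 lower. Lef1/Ccr7 over Cxcr6 T cells was 0.069 and 0.17 in female cells, with 0 members past the fold, and 0.0058 and 0.034 in male cells.

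With a mitochondrial limit of 25%, tamoxifen over oil was 0.11, 0.045, 0.20, -0.15, 0.10 and 0.070 in Lef1/Ccr7 T cells, Cxcr6 T cells, B cells, alveolar macrophages, interstitial macrophages and Mgl2/Cd209a cells, Lef1/Ccr7 over Cxcr6 T cells was 0.065 and 0.14, and 1 pair was lower. With at least 1000 genes per barcode tamoxifen over oil was 0.092, 0.0028, -0.18, 0.084 and 0.057 in Lef1/Ccr7 T cells, Cxcr6 T cells, alveolar macrophages, interstitial macrophages and Mgl2/Cd209a cells, and Lef1/Ccr7 over Cxcr6 T cells 0.037 and 0.13. With immunoglobulin genes left out of the total, an alternative chosen after seeing the data, tamoxifen over oil was 0.089 in Lef1/Ccr7 T cells and 0.083 in B cells, and Lef1/Ccr7 over Cxcr6 T cells was 0.056 in oil.

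Scaled by the median of gene ratios 31 pairs were lower, and scaled by the members' UMIs 4, with 0 members past the fold between T cells. At 1.5-fold there were 0 and 1. With core members alone 0 were past the fold between T cells, since Rps27l is not a core member. All other alternatives, such as leaving mitochondrial genes out of the total or dropping the minimum of UMIs, kept the counts within 1.5 times and the shares within their counting intervals. The causes of these shifts were not tested. Of the ratios of named members, 165 moved beyond their interval under median scaling and 182 under scaling by the members' UMIs, and none turned from past the fold on one side to the other.

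No paired analysis was possible because each treatment has 1 library. Counts of single members were large, so depth limits few ratios, and the missing replicate limits all of them.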

Other observations

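Mitochondrial ribosomal proteins, which build the separate ribosome of the mitochondrion, did not follow the cytosolic ones. In alveolar macrophages over Cxcr6 T cells 3 of 52 tested genes were higher and 7 lower in both libraries (background 27.9% and 25.4%), with medians of -0.05 and -0.02, where the members had -0.58 and -0.86. Mrps5 was the lowest, with 32.3 against 81.2 CPM in oil and 29.5 against 74.2 in tamoxifen (-1.33 and -1.33), and Mrpl17 the highest (0.77 and 0.78). In tamoxifen over oil 13 of 57 tested genes were higher and none lower in interstitial macrophages (background 9.64% and 4.13%), with a median of 0.29 against 0.08 for all genes and 0.09 for the members. Of 7 growth control genes tested 2 were higher in alveolar macrophages than in Cxcr6 T cells, a share near the background of 27.9%: Myc, a driver of ribosome synthesis (0.43 and 0.76), and Eif4ebp1, a target of mTOR that restrains initiation (0.83 and 0.67).

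Barcodes that the filters removed had low shares of ribosomal protein UMIs. The share was 20.9% in kept oil barcodes and 20.1% in kept tamoxifen barcodes. It was 6.02% and 6.74% in barcodes over the mitochondrial limit with enough genes, and 8.21% and 6.99% in barcodes with too few genes. With mitochondrial UMIs left out of the total, the share in barcodes over the limit was 7.29% and 8.23%.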
